A study of Mus musculus with 9 samples.

Results

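The genes described here are 10 core components of the microRNA pathway: Drosha, Dgcr8, Xpo5, Dicer1, Tarbp2, Ago1, Ago2, Ago3, Tnrc6a and Tnrc6b. They were found by gene symbol in the deposited transcript table, which lists 1 transcript per gene for 30519 genes, and all 10 were present. Their abundance was compared between livers of 4 miR-122 knockout mice (KO) and of 5 floxed littermates (WT), which carry the floxed allele. All 9 mice were 6 weeks old; 1 KO and 3 WT animals were female, and 3 KO and 2 WT animals were male. No source used here names the promoter or Cre line behind the deletion, or further alleles of the mice. Each frozen liver was powdered, most of the powder went to Argonaute CLIP, which maps Argonaute on its target RNAs, and the part that was not crosslinked gave the polyA-selected RNA-seq library measured here. The comparison asks whether loss of the main microRNA of hepatocytes was accompanied by altered mRNA levels of the machinery that makes and uses microRNAs.

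A primary microRNA transcript is cropped in the nucleus by the microprocessor, the RNase III enzyme Drosha with its RNA-binding cofactor DGCR8, and the hairpin is exported by exportin-5. In the cytoplasm Dicer, helped by the double-stranded RNA-binding protein TRBP (gene Tarbp2), trims the hairpin to a duplex, of which an Argonaute protein keeps 1 strand. Argonaute then recruits a TNRC6 (GW182) scaffold protein, which brings in the deadenylase complexes that shorten and repress the target mRNA. In hepatocytes a large share of Argonaute is normally occupied by miR-122 itself. The microRNA was not analysed here.

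Levels are the deposited normalised abundances. They scale per transcript length (a slope of 1.05 of estimated count per unit value against length, on natural logs, over 7365 transcripts), so levels of different genes can be compared per length, but they are not TPM. Libraries held 15.4 to 22.1 M estimated reads in KO and 12.2 to 19.7 M in WT, and the 10 genes rested on 54.8 to 977 normalised estimated counts per library. Differences were tested with limma on log2(value + 1) over 10950 transcripts with a mean of at least 1, and a call means a Benjamini-Hochberg adjusted p under 0.05. WT replicate 3 is female by its label and male by its column name. Its Y-linked transcripts Ddx3y (0.0422), Uty (0) and Eif2s3y (0.114) were near 0, and the label was used. In bulk liver, fewer cells of a type and less RNA per cell cannot be told apart.

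Of the 10 genes, Drosha, Tarbp2 and Tnrc6a rose in KO liver, and none fell by limma. At an unadjusted limma p under 0.05, 4 of 9 were higher and 0 lower, beside 26.4% and 19.3% of all tested transcripts. The other 6 tested genes were not called (Dgcr8, Xpo5, Dicer1, Ago1, Ago2 and Tnrc6b), and Ago3 was below the filter. The 3 calls were 33.3% of the 9 tested genes, close to the 35.9% called among all tested transcripts, so the number of calls is not a result about this pathway. All 3 were in the direction that held 21.4% of tested transcripts, against 14.5% lower. Groups did not overlap for the same 3 genes, and for 31.1% of all tested transcripts (19.0% with KO higher). By the authors' deposited q-value, Drosha and Tarbp2 passed 0.05, 2 of 10 genes, both higher and none lower, beside 25.2% of 13540 transcripts. The median log2 difference of the 9 genes was -0.04, beside 0.03 over all tested transcripts. Differences of Drosha and Tarbp2 ranked at the 91.1st and 84.3rd percentiles of all tested transcripts, and that of Tnrc6a at the 69.7th.

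**Figure D1:**
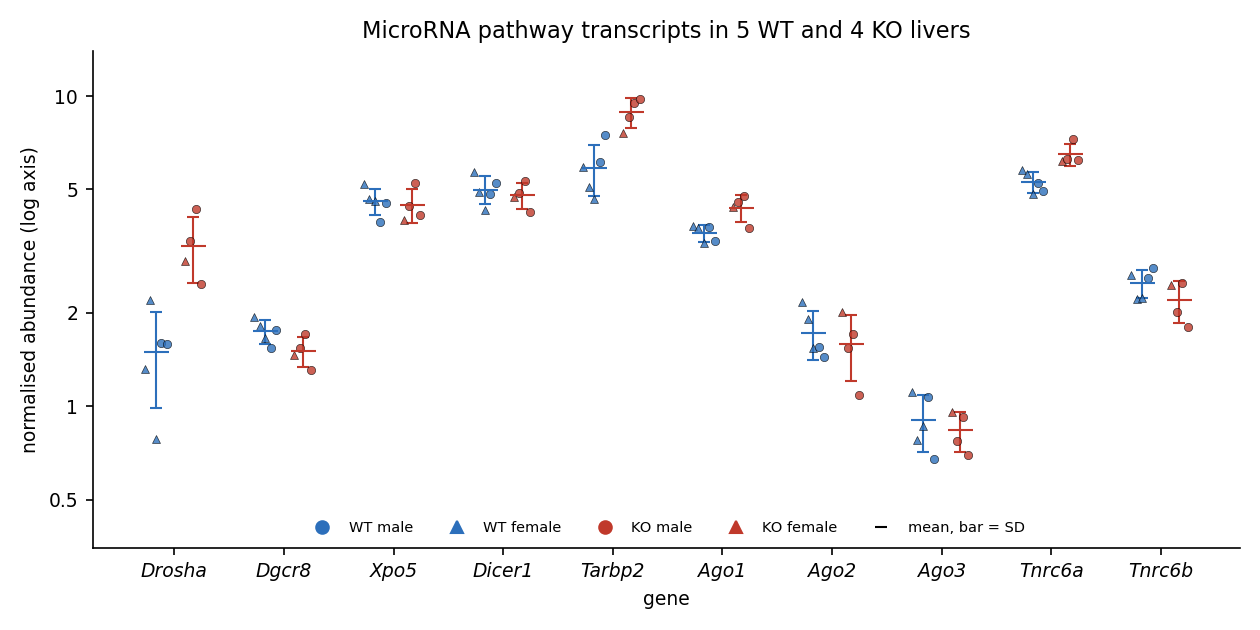
Normalised abundance (log axis) of each gene in the 5 WT (blue) and 4 KO (red) livers, females as triangles and males as circles, with the mean and SD of each group. Groups are separate for Drosha, Tarbp2 and Tnrc6a and overlap for the other 7 genes.

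Drosha, the catalytic subunit of the microprocessor, showed the largest difference of the 10 genes. Its level was 2.95, 3.41, 4.32 and 2.47 in KO replicates 1 to 4, and 1.32, 2.20, 0.785, 1.60 and 1.59 in WT replicates 1 to 5. Every KO liver lay above every WT liver, the gap between KO replicate 4 and WT replicate 2 being small. The mean was 2.19-fold higher in KO (3.29 ± 0.788, SD, n = 4, against 1.50 ± 0.512, SD, n = 5), and the log2 difference was 0.79 with a 95% interval of 0.38 to 1.19 (SE 0.18, limma adjusted p = 0.00771). The authors' deposited table, converted to KO minus WT on the log2 scale, gave 1.13 (q = 0.00995). The call was not made among males alone, where the log2 difference was 0.74 (limma adjusted p = 0.0569). It was made with sex as a covariate (limma adjusted p = 0.0190).

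Dgcr8, whose own mRNA is a known substrate of the microprocessor, did not pass the test. It stood at 1.46, 1.54, 1.71 and 1.31 in KO and at 1.94, 1.81, 1.66, 1.54 and 1.77 in WT livers. Most KO values were below most WT values, but the ranges overlapped. Means were 1.50 ± 0.167 (SD, n = 4) and 1.75 ± 0.152 (SD, n = 5), and the log2 difference of -0.13 had a 95% interval of -0.34 to 0.07 (limma adjusted p = 0.284).

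The 2 subunits can be read as a ratio inside each library, which does not depend on how libraries were scaled. Drosha over Dgcr8 was 2.02, 2.21, 2.53 and 1.89 in the KO livers and 0.681, 1.21, 0.472, 1.04 and 0.901 in the WT livers. The lowest KO ratio exceeded the highest WT ratio. Mean ratios were 2.16 ± 0.278 (SD, n = 4) and 0.861 ± 0.292 (SD, n = 5), with a two-sided exact permutation p of 0.00794, the smallest that the 126 splits of 4 against 5 livers can give, and 0.0198 after Benjamini-Hochberg adjustment over the 5 gene pairs examined. The ratio was higher in all 4 KO livers. A ratio does not say which transcript differed. The adjusted p was 0.0714 without WT replicate 1, 3, 4 or 5.

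The transcript listed for Drosha (ENSMUST00000090292, Drosha-201, 4519 bases, chr15 plus strand, gene at chr15:12824815-12935291, GRCm38, GENCODE M21) has a near twin. Drosha-207 (4570 bases) shares 4518 bases and the same coding sequence of 4119 bases with it. The pair differ at the 5′ end, where the first exon of Drosha-201 spans chr15:12824863-12824938 and that of Drosha-207 spans chr15:12824815-12824942, and by 1 base at the 3′ end. Reads from most of the gene can therefore be assigned to either transcript. In the authors' deposited table the technical variance of Drosha was 0.106 in squared natural log units, 40.6% of its observed variance, and ranked at the 83.8th percentile of 1417 transcripts of like abundance, whose median was 0.0107. The share was similar for Dgcr8 (43.5%) and Xpo5 (38.7%), whose technical variances ranked low among transcripts of like abundance (0.300th and 17.2nd percentile). As a technical SD that of Drosha is 0.469 on the log2 scale, against a difference of 1.13 in the same table. Whether the sum of both transcripts differed between the groups was not tested.

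The 250 bases before the RefSeq start of Drosha are shown. They end just before the first base of Drosha-207, so they hold none of the bases in which the isoforms differ. Positions count back from that start, and the listed Drosha-201 starts 48 bases downstream of it. The stretch (chr15:12824565-12824814, plus strand, GRCm38.p6) has 66.4% G and C, against a median of 52.4% over all RefSeq promoters, and the capitals mark an ETS-type match (CCGGAAG or its reverse, here read as CTTCCGG at -154 to -148) followed at once by a CCAAT box on the reverse strand (ATTGG), and the 2 further CCAAT boxes at -95 to -91 and -61 to -57.
Drosha promoter: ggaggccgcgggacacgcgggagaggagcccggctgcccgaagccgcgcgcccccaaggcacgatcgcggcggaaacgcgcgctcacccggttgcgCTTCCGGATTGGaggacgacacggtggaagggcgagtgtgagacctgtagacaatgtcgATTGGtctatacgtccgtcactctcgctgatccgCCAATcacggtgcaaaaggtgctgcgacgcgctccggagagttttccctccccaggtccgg

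**Figure D2:**
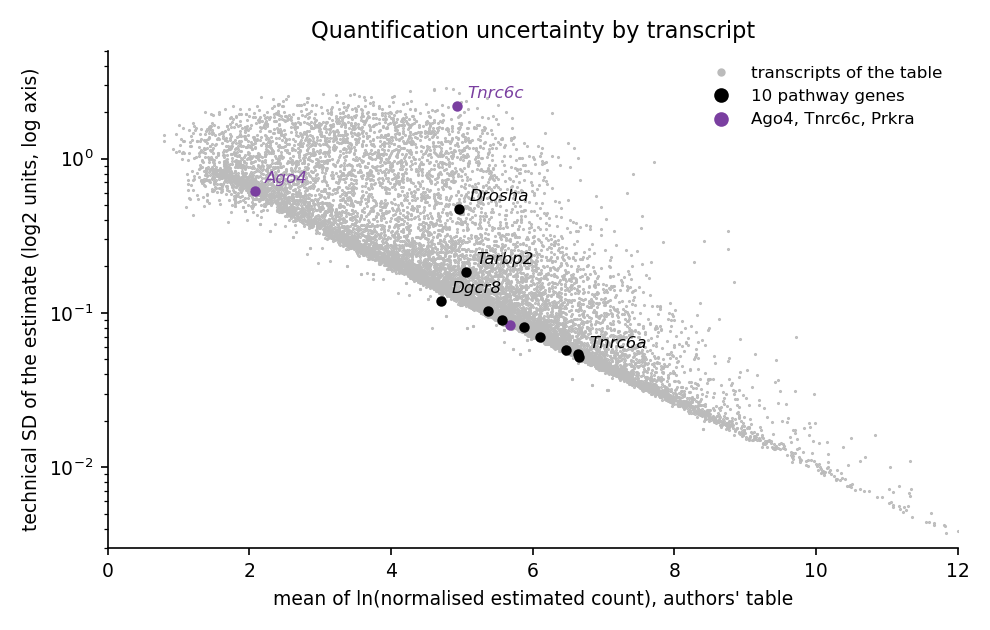
Technical SD of the estimate in log2 units (log axis) against the mean of the natural log of the normalised estimated count, both from the authors' deposited table, for all its fitted transcripts (grey), the 10 pathway genes (black) and Ago4, Tnrc6c and Prkra (purple). Drosha and Tnrc6c lie above the band of most transcripts of like abundance, and most of the other genes lie along its lower edge.

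Xpo5 encodes exportin-5, which carries precursor hairpins out of the nucleus. Its level was 3.97, 4.43, 5.23 and 4.15 in KO and 5.21, 4.66, 4.60, 3.94 and 4.52 in WT livers. The ranges were nearly the same, with means of 4.45 ± 0.556 (SD, n = 4) and 4.58 ± 0.451 (SD, n = 5). The log2 difference of -0.04 had a 95% interval of -0.25 to 0.18 (limma adjusted p = 0.785).

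Dicer1, which encodes the enzyme that cuts the hairpin to a duplex, likewise did not pass the test. It was measured at 4.73, 4.85, 5.34 and 4.24 in KO and at 5.70, 4.90, 4.29, 4.84 and 5.24 in WT livers. Values of both groups were interspersed. Means were 4.79 ± 0.456 (SD, n = 4) and 5.00 ± 0.522 (SD, n = 5), and the log2 difference was -0.05 with a 95% interval of -0.25 to 0.16 (limma adjusted p = 0.706).

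Tarbp2, the gene of Dicer's partner TRBP, rose in KO liver. Its level was 7.62, 8.58, 9.51 and 9.81 in KO replicates 1 to 4, and 5.90, 5.11, 4.68, 6.13 and 7.47 in WT replicates 1 to 5. The groups did not overlap, although the female KO liver was close to the highest WT male. Mean abundance was 1.52-fold higher in KO (8.88 ± 0.988, SD, n = 4, against 5.86 ± 1.08, SD, n = 5). The log2 difference was 0.54 with a 95% interval of 0.26 to 0.81 (SE 0.12, limma adjusted p = 0.00847), and the authors' deposited q was 0.0173. Males were higher than females in both groups, with means of 9.30 (n = 3) against 7.62 (n = 1) in KO and 6.80 (n = 2) against 5.23 (n = 3) in WT, and KO held the larger share of males. Among males alone the log2 difference was 0.40 and the call was not made (limma adjusted p = 0.0804). With sex as a covariate the call was made (limma adjusted p = 0.00951).

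Prkra, the gene of PACT, a second double-stranded RNA-binding partner of Dicer, was measured at 11.8 ± 1.74 (SD, n = 4) in KO and 12.8 ± 1.25 (SD, n = 5) in WT liver, a log2 difference of -0.11 (limma adjusted p = 0.452). Dicer1 over Tarbp2 fell from 0.867 ± 0.117 (SD, n = 5) in WT to 0.545 ± 0.0799 (SD, n = 4) in KO. The ratio was 0.620, 0.566, 0.562 and 0.432 in KO livers and 0.966, 0.960, 0.918, 0.790 and 0.702 in WT livers, so all 4 KO values lay below all 5 WT values. The exact permutation p, two-sided, was 0.00794, the smallest the design allows, and 0.0198 after Benjamini-Hochberg adjustment over the 5 pairs. Without WT replicate 1, 3, 4 or 5 the adjusted exact permutation p was 0.0714. In WT the females (0.966, 0.960 and 0.918) lay above the males (0.790 and 0.702), and in KO the female (0.620) lay above the males. KO held the larger share of males, and the permutation did not account for sex.

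Tarbp2 has 14 annotated transcripts, 6 of them coding, and the level given here is that of ENSMUST00000023813 (1523 bases, gene at chr15:102518192-102523676, plus strand, GRCm38, GENCODE M21). A shorter coding transcript of the gene (1278 bases) lacks exons 2 and 3 of the listed one, 273 coding bases. These exons, at chr15:102519122-102519291 (170 bases) and chr15:102520475-102520577 (103 bases), are shown in spliced order because reads over them separate the listed transcript from the shorter one, with exon 2 in lower case and exon 3 in capitals.
Tarbp2 exons 2 and 3: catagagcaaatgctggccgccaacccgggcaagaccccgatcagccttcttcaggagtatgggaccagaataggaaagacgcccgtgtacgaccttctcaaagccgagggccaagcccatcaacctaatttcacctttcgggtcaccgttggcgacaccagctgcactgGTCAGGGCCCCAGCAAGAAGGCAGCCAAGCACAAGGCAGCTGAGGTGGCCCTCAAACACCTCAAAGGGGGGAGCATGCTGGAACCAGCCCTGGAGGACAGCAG
In the authors' deposited table the technical variance of the listed transcript was 24.8% of the observed variance, at the 64.3rd percentile of 1446 transcripts of like abundance. Levels of the other Tarbp2 transcripts were not analysed here.

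The promoter of Tarbp2 is shown beside that of Drosha because both transcripts were called higher. It covers 250 bases before the RefSeq start (chr15:102517942-102518191, plus strand, GRCm38.p6), and its capitals mark 3 CCAAT boxes at -250 to -246, -183 to -179 and -143 to -139.
Tarbp2 promoter: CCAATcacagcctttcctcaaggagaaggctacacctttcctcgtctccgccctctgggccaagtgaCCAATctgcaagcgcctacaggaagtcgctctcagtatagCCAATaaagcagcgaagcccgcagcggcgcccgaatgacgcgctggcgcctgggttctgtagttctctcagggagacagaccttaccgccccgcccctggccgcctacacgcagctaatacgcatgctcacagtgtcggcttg
CCAAT, searched on both strands as CCAAT and ATTGG, was present in the promoters of 6 of the 9 genes with a RefSeq entry (Ago1, Dgcr8, Dicer1, Drosha, Tarbp2 and Tnrc6b) and in 33.8% of all 32851 promoters. The ETS-type word CCGGAAG was present in Ago3 and Drosha and in 6.91% of promoters. The E-box CACGTG was found in 1 promoter of Tnrc6b (6.02% of all promoters). The CRE TGACGTCA (1.55% of all) and the TATA word TATAAA (12.4%) were found in none of the 9 genes. All words were searched on both strands. A gene counted if any of its promoter entries held the word, whereas the shares are per entry. Ago1 and Tnrc6b had more than 1 entry. These matches describe letters in a window, and Drosha and Tarbp2 shared CCAAT boxes with 4 genes that were not called. The promoter of Tnrc6a, which was also called higher and is not shown, held none of these words and had 42.4% G and C.

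Argonaute proteins hold the mature microRNA, and AGO2 is the mammalian member with slicing activity. Ago2 itself stood at 2.01, 1.55, 1.71 and 1.09 in KO and at 2.17, 1.91, 1.54, 1.55 and 1.44 in WT livers. The ranges overlapped, and KO replicate 4 lay below every WT liver. Means were 1.59 ± 0.384 (SD, n = 4) and 1.72 ± 0.308 (SD, n = 5), and the log2 difference of -0.08 had a 95% interval of -0.37 to 0.22 (limma adjusted p = 0.682).

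Ago1 was measured at 4.40, 4.55, 4.76 and 3.76 in KO livers and at 3.81, 3.75, 3.35, 3.79 and 3.41 in WT livers. The first 3 KO livers were above every WT liver, and KO replicate 4 lay inside the WT range. Means were 4.37 ± 0.427 (SD, n = 4) and 3.62 ± 0.223 (SD, n = 5), and the log2 difference of 0.21 had a 95% interval of 0.03 to 0.40 but missed the threshold (limma adjusted p = 0.0685). The call was made without KO replicate 4 (log2 difference 0.27, limma adjusted p = 0.0330) and with all libraries scaled to equal totals (0.53, limma adjusted p = 0.0108). Equal totals also moved the median log2 difference of all tested transcripts from 0.03 to 0.37, with 45.4% of them called higher. The authors' deposited q was 0.208.

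Ago3 was the lowest of the 10 genes and had a mean below 1. Its level was 0.957, 0.772, 0.922 and 0.698 in KO and 1.12, 0.777, 0.863, 1.07 and 0.676 in WT livers, with overlapping ranges and means of 0.837 ± 0.123 (SD, n = 4) and 0.901 ± 0.189 (SD, n = 5). The authors' deposited q was 0.747. The transcript listed for Ago4, the remaining family member, is a processed transcript of 574 bases with a geometric mean of 7.96 normalised estimated counts, so the table says little about the Ago4 mRNA. It stood at 1.08 ± 0.222 (SD, n = 4) in KO and 1.05 ± 0.129 (SD, n = 5) in WT liver. Ago3 (chr4:126331704-126429556), Ago1 (chr4:126435012-126468583) and Ago4 (chr4:126489541-126533472) lie side by side on the minus strand, whereas Ago2 lies at chr15:73095844-73184935 (GRCm38).

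Within a library, Ago2 over Ago1 was 0.362 ± 0.0702 (SD, n = 4) in KO and 0.474 ± 0.0660 (SD, n = 5) in WT liver. It was 0.457, 0.340, 0.360 and 0.290 against 0.570, 0.508, 0.459, 0.409 and 0.423, and KO replicate 1 fell among the WT livers. The exact permutation p, two-sided, was 0.0476, and 0.0595 after Benjamini-Hochberg adjustment over the 5 pairs. Ago2 over Ago3 was 1.88 ± 0.235 (SD, n = 4) and 1.95 ± 0.378 (SD, n = 5; exact permutation p = 0.833). Over the 9 libraries the named genes whose log2(value + 1) followed Ago2 most closely were Rprd2 (Pearson r = 0.94), Spata24 (0.92) and Stim1 (0.92); the points share libraries, scaling and both genotypes.

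TNRC6 scaffolds link Argonaute to the deadenylases. Tnrc6a stood at 6.16, 6.28, 7.28 and 6.24 in KO replicates 1 to 4, and at 5.78, 5.59, 4.82, 5.26 and 4.94 in WT replicates 1 to 5. All KO livers were above all WT livers, and KO replicate 3 stood apart from the other 3. Tnrc6a rose 1.23-fold (6.49 ± 0.531, SD, n = 4, against 5.28 ± 0.412, SD, n = 5), a log2 difference of 0.25 with a 95% interval of 0.07 to 0.43 (limma adjusted p = 0.0330). This call was not made under 11 of 20 alternatives, among them sex as a covariate (log2 difference 0.26), males alone (0.32, limma adjusted p = 0.123) and leaving out any 1 of KO replicates 2, 3 and 4 or WT replicates 3, 4 and 5. The authors' deposited q was 0.0900.

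Tnrc6b, its paralog, was 2.46, 2.02, 2.50 and 1.80 in KO and 2.64, 2.22, 2.24, 2.58 and 2.78 in WT livers. The ranges overlapped, with means of 2.19 ± 0.343 (SD, n = 4) and 2.49 ± 0.254 (SD, n = 5). Its log2 difference was -0.13 with a 95% interval of -0.36 to 0.10 (limma adjusted p = 0.341). Tnrc6a over Tnrc6b was 3.00 ± 0.403 (SD, n = 4) in KO and 2.13 ± 0.271 (SD, n = 5) in WT liver (exact permutation p = 0.0238, two-sided, 0.0397 after Benjamini-Hochberg adjustment over the 5 pairs). The ranges touched, the lowest KO ratio (2.50, replicate 1) being just under the highest WT ratio (2.52, replicate 2). This ratio was called in 2 of 9 fits with 1 library left out (without KO replicate 1 or WT replicate 2), and the adjusted exact permutation p reached 0.0952 in the other 7. For the remaining paralog, Tnrc6c, the technical variance in the authors' deposited table was 2765% of the observed variance, at the 99.5th percentile of transcripts of like abundance, so its log2 difference of 0.11 (limma adjusted p = 0.628) could not be read.

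**Figure D3:**
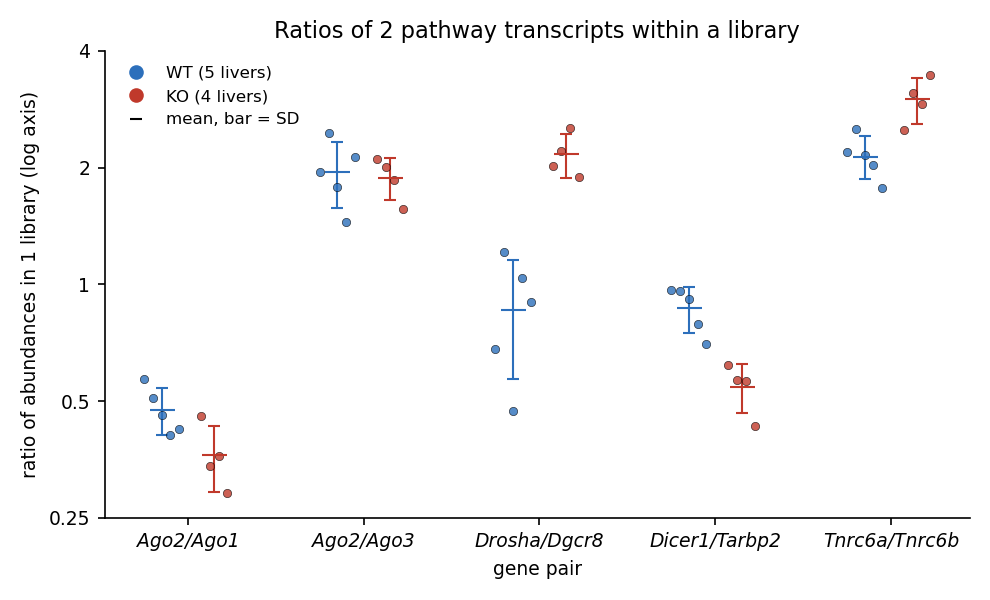
Ratio of 2 pathway transcripts within each library (log axis) in 5 WT (blue) and 4 KO (red) livers, with the mean and SD of each group. Drosha/Dgcr8 and Dicer1/Tarbp2 separate the genotypes completely, Tnrc6a/Tnrc6b nearly so, and the Ago2 ratios overlap.

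In WT liver the order of levels per length was Tarbp2 (5.86), Tnrc6a (5.28), Dicer1 (5.00), Xpo5 (4.58), Ago1 (3.62), Tnrc6b (2.49), Dgcr8 (1.75), Ago2 (1.72), Drosha (1.50) and Ago3 (0.901). Ranges of neighbours overlapped from Tarbp2 down to Xpo5 and again from Dgcr8 to Ago3. No overlap separated Xpo5 from Ago1, Ago1 from Tnrc6b and Tnrc6b from Dgcr8. By mean level the tested genes ranked between the 9.90th percentile (Dgcr8) and the 49.8th percentile (Tarbp2) of tested transcripts, which are those with a mean of at least 1. Levels are of 1 transcript per gene, and a gene spread over several transcripts is understated.

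The deposited scaling bears on the small differences. Deposited values summed to 0.765 ± 0.073 M (M for mega) in KO and 1.011 ± 0.115 M in WT libraries, and scaling every library to the same total moved the median log2 difference of all transcripts from 0.03 to 0.37. Among all transcripts 2345 were called higher and 1589 lower as deposited, against 5030 and 301 of 11086 with equal totals (45.4% and 2.72%). The log2 differences of Drosha (1.06), Tarbp2 (0.89), Tnrc6a (0.60) and Ago1 (0.53) were then called higher, 4 of 9 tested genes. Those of Ago2, Dgcr8, Dicer1, Xpo5 and Tnrc6b changed sign from below to above 0 without a call, and all 5 were below the shifted median. Relative to the median of each scaling, Drosha, Tarbp2, Tnrc6a and Ago1 were above it and the other 5 below it on both scales.

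**Figure D4:**
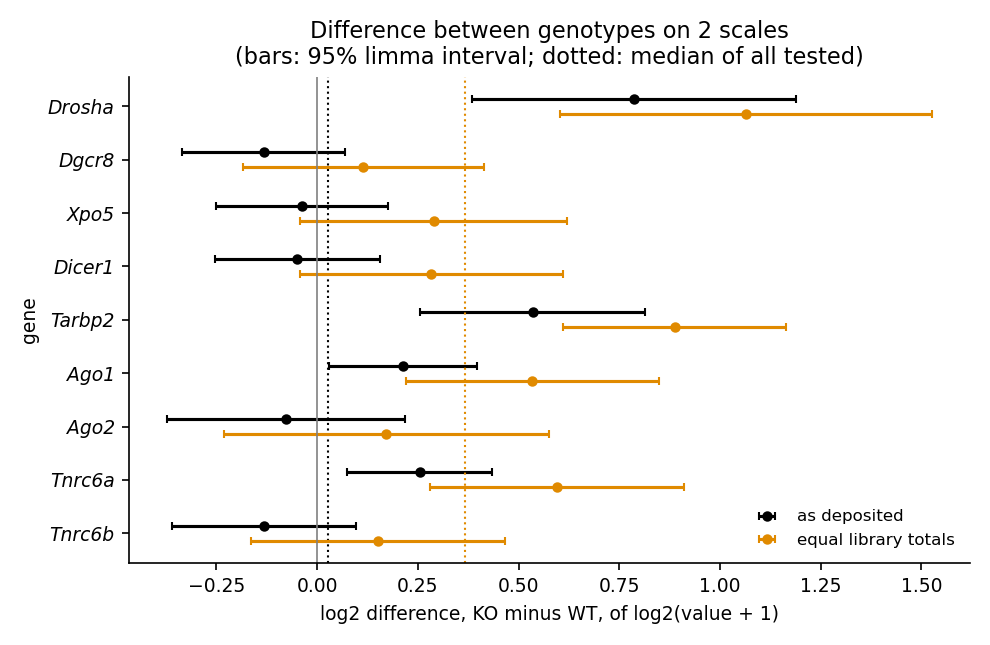
Log2 difference, KO minus WT, of log2(value + 1) with its 95% limma interval for the 9 tested genes, as deposited (black) and with equal library totals (orange); dotted lines mark the median of all tested transcripts on each scale. Drosha and Tarbp2 lie right of the dotted line on both scales with their whole interval.

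Beyond the 10 genes, 5 lists of pathway genes held 114 genes, of which 106 were tested. In KO 15 were called higher and 12 lower, 25.5% of those tested, beside 35.9% of all transcripts, and the median log2 difference was 0.07, beside 0.03. By the authors' deposited q-value 12 of 109 were higher and 12 lower, beside 25.2% of 13540 transcripts called in either direction. With equal totals 59 of 107 were higher and none lower by limma, beside 45.4% and 2.72% of all tested transcripts. The downward calls named below therefore rest on the deposited scaling. The lists are described by these counts only.

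Nuclear and export steps had 16 tested genes, of which 1 rose and 1 fell (12.5% called, beside 35.9% of all tested transcripts). Hnrnpa1, an RNA-binding protein that aids the cropping of some primary transcripts, rose from 36.1 ± 3.16 (SD, n = 5) to 52.5 ± 7.18 (SD, n = 4; limma adjusted p = 0.00467). Ncbp2, the small subunit of the nuclear cap-binding complex, fell from 15.1 ± 0.571 to 12.7 ± 1.02 (limma adjusted p = 0.0294), and its log2 difference was 0.14 at equal totals. Its call was lost on leaving out KO replicate 2, KO replicate 3, or WT replicate 1, 3 or 4 (limma adjusted p up to 0.0863) and with sex as a covariate (0.0659), and the authors' deposited q was 0.0677.

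Dicer partners and chaperones of Argonaute loading had 16 tested genes, of which 1 rose and 2 fell (18.8% called, beside 35.9% of all tested transcripts). Hsp90ab1, the constitutive HSP90 that keeps Argonaute open for loading, rose from 282 ± 6.99 (SD, n = 5) to 378 ± 42.7 (SD, n = 4; limma adjusted p = 0.00493). The HSP70 co-chaperones Dnaja2 (58.0 ± 2.81 in KO against 70.2 ± 4.77 in WT) and Dnaja1 (101 ± 17.2 against 131 ± 9.78) fell, with limma adjusted p of 0.0163 and 0.0252. Their log2 differences at equal totals were 0.12 and 0.00. The ranges of Dnaja1 overlapped, and its call was lost without any 1 of KO replicates 2 to 4 or WT replicates 1 to 3 (limma adjusted p up to 0.0679), as was that of Dnaja2 without KO replicate 3 (0.0505).

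Genes of microRNA tailing and turnover had 12 tested of 15, and 3 rose and 3 fell (50% called, beside 35.9% of all tested transcripts). The largest difference was that of Zcchc11, the uridylyltransferase TUT4, whose listed transcript is a short model of 587 bases: it stood at 3.71, 5.42, 4.46 and 8.49 in KO and at 0.675, 2.17, 1.12, 1.16 and 0.818 in WT livers. All KO livers were higher, KO replicate 4 the most. The mean was 4.64-fold higher (5.52 ± 2.10, SD, n = 4, against 1.19 ± 0.587, SD, n = 5; limma adjusted p = 0.000865), whereas the authors' deposited q was 0.130. Zcchc6, the related TUT7, rose from 19.5 ± 2.15 to 27.1 ± 1.23 (limma adjusted p = 0.00380). Zswim8, the adaptor of a ubiquitin ligase that acts on Argonaute in target-directed microRNA decay, rose from 3.41 ± 0.448 to 4.49 ± 0.633 (limma adjusted p = 0.0449), and its call was lost in 7 of 9 fits with 1 library left out (up to 0.125; kept without KO replicate 4 or WT replicate 1) and with sex as a covariate (0.0518).

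The 3 that fell were the poly(A) ribonuclease Parn (6.99 ± 0.403 in KO against 9.11 ± 0.922 in WT, limma adjusted p = 0.0122), Pnpt1 (14.3 ± 1.32 against 19.0 ± 2.16, 0.0124) and Mtpap (6.63 ± 0.224 against 8.50 ± 1.26, 0.0397). The call of Mtpap was lost in 7 of 9 fits with 1 library left out (limma adjusted p up to 0.0933; kept without WT replicate 2 or 4) and with sex as a covariate (0.0600). Pnpt1 and Mtpap are known mainly as a mitochondrial RNA-degrading enzyme and the mitochondrial poly(A) polymerase. Papd4, the poly(A) polymerase GLD-2 known for adenylating miR-122, falls outside the naming rule and was picked after its values were seen: it stood at 22.3 ± 2.80 (SD, n = 4) in KO and 22.5 ± 1.16 (SD, n = 5) in WT liver, a log2 difference of -0.02 with a 95% interval of -0.21 to 0.18 (limma adjusted p = 0.891).

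Effectors of silencing, the deadenylases, decapping factors and translational repressors, had 40 tested genes of 41, and 3 rose and 5 fell. That is 20% called, beside 35.9% of all tested transcripts. Lsm3, a subunit of the LSM ring that binds deadenylated mRNA, rose from 8.76 ± 1.55 (SD, n = 5) to 16.6 ± 2.20 (SD, n = 4; limma adjusted p = 0.00103), and Lsm4 of the same ring rose from 20.2 ± 3.36 to 25.9 ± 0.826 (0.0269). The ranges of Lsm4 overlapped (WT replicate 4 stood at 25.9), its call was lost without any 1 of KO replicates 1 to 3 or WT replicates 1 to 3 (limma adjusted p up to 0.0687) and with sex as a covariate (0.0527), and the authors' deposited q was 0.0680. Lsm6, also a subunit of the ring, fell from 32.0 ± 2.82 to 20.2 ± 2.63 (limma adjusted p = 0.00123); its listed transcript is 1 isoform of 541 bases. Cnot11 of the CCR4-NOT deadenylase rose from 3.38 ± 0.466 to 5.19 ± 0.473 (limma adjusted p = 0.00380). Cnot6 of the same complex, outside the naming rule, fell from 11.0 ± 0.633 to 9.35 ± 0.651 with overlapping ranges (limma adjusted p = 0.0400). The other tested Cnot genes were not called. The poly(A)-binding proteins Pabpc1 (74.8 ± 1.69 in KO against 94.6 ± 8.25 in WT, limma adjusted p = 0.00843) and Pabpc4 (5.27 ± 0.903 against 7.65 ± 0.785, 0.00886; the authors' deposited q was 0.0888) fell, as did the helicase gene Eif4a2 (102 ± 10.3 against 161 ± 33.8, limma adjusted p = 0.0127).

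Argonaute partners and modifiers had 22 tested genes of 26, with 7 higher and 1 lower. The share called, 36.4%, was close to the 35.9% of all tested transcripts. P4ha1, the subunit of the prolyl hydroxylase that modifies AGO2 and, mainly, collagen, stood at 4.77, 4.62, 3.57 and 5.70 in KO and at 0.642, 0.00150, 1.18, 0.434 and 0.0189 in WT livers. All KO livers were higher. The mean was 10.2-fold higher (4.66 ± 0.872, SD, n = 4, against 0.455 ± 0.489, SD, n = 5; limma adjusted p = 0.000208), for 1 isoform of the gene, and 17.01-fold higher without WT replicate 3 (WT mean 0.274 ± 0.317). The LIM-domain protein gene Ajuba was 3.81-fold higher (6.87 ± 1.43 against 1.80 ± 0.407, limma adjusted p = 6.24e-05). Mapkapk2, a kinase that phosphorylates AGO2 as well as other substrates, was 2.07-fold higher (39.2 ± 5.66 against 18.9 ± 1.06, limma adjusted p = 8.46e-05), and the helicase gene Mov10 was 1.85-fold higher (5.56 ± 1.12 against 3.00 ± 0.457, limma adjusted p = 0.00285). Fxr1, an RNA-binding protein of the fragile X family, fell from 29.0 ± 3.07 to 22.7 ± 1.62 (limma adjusted p = 0.0177), a call lost without KO replicate 2 (0.0546). Its paralog Fxr2, outside the naming rule, rose from 8.64 ± 0.814 to 10.8 ± 0.209 without overlap (limma adjusted p = 0.0156). Fmr1 of the same family was not called (log2 difference 0.25, limma adjusted p = 0.226). Among males alone 15 of the 23 genes that the naming rule took from the lists lost their call.

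**Figure D5:**
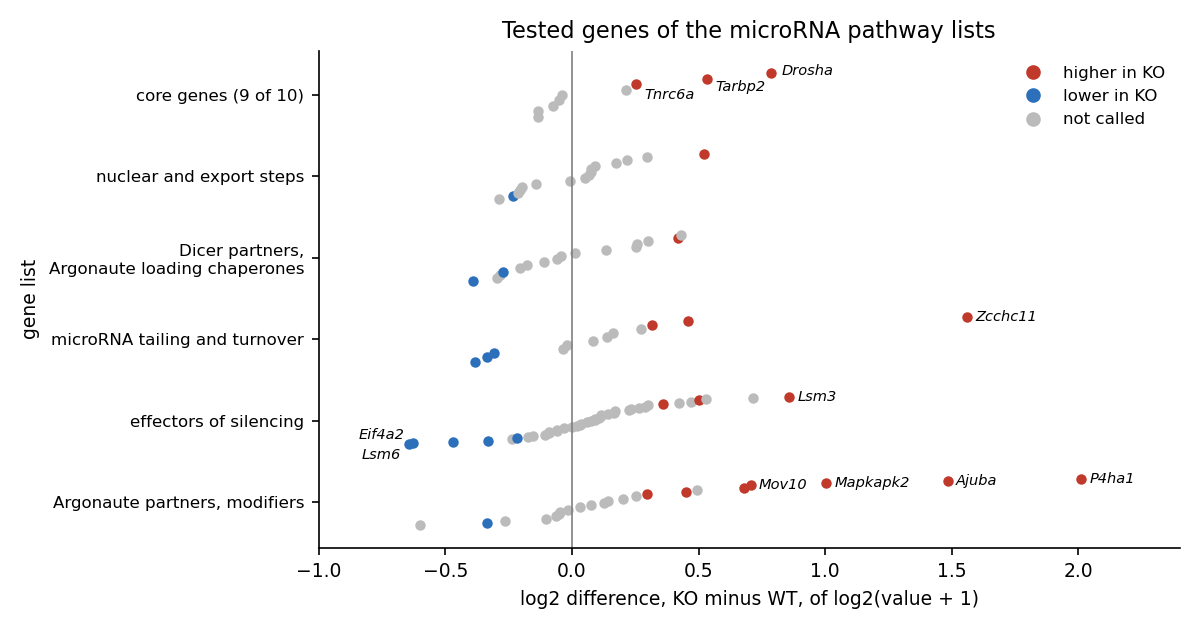
Log2 difference, KO minus WT, of log2(value + 1) for each tested gene of the core set and of the 5 pathway lists; red and blue points were called higher and lower by limma, grey points were not called. P4ha1, Zcchc11, Ajuba and Mapkapk2 lie farthest to the right, at 1.00 or more, and Lsm6 and Eif4a2 farthest to the left among the called genes.

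Several sums of cell markers differed with genotype beside these results. Summed levels of cholangiocyte and progenitor markers (6 listed, 4 tested and all 4 higher) ranged from 558 to 932 in KO and from 33.1 to 59.5 in WT livers. Sums of macrophage (6 of 6 higher; 217.5 to 291 against 143 to 200.8), stellate and fibroblast (5 of 6 higher; 232 to 277 against 113 to 205) and lymphocyte markers (1 of 1 tested higher; 7.20 to 12.2 against 2.56 to 6.42) did not overlap either. Sums overlapped for proliferation (5 of 6 higher; 15.9 to 53.2 against 4.57 to 18.0), neutrophil (2 of 3 tested higher; 57.6 to 127 against 11.5 to 65.1), erythroid (2 of 4 higher; 1449 to 2827 against 1066 to 1726) and endothelial markers (1 of 5 lower; 46.0 to 59.4 against 45.2 to 66.1). Hepatocyte sums overlapped too (52073 to 69970 against 47621 to 114995; 1 of 7 lower), and no marker of any list was at 0 in all livers. The part of these shifts in the differences of Drosha, Tarbp2 and Tnrc6a was not tested.

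By library, KO replicate 4 gave the lowest KO value for 7 of the 10 genes, KO replicate 3 the highest KO value for 7, and WT replicate 1 the highest WT value for 7. Transcripts of at least 6000 bases, which include those of Ago1, Ago2, Ago3, Dicer1, Tnrc6a and Tnrc6b, had a median deviation from the other libraries of the group of -0.16 on the log2 scale in KO replicate 4, 0.12 in KO replicate 3 and 0.10 in WT replicate 1. Transcripts under 2000 bases, such as that of Tarbp2, had 0.11, -0.08 and -0.07 in the same libraries. Between genotypes the median log2 difference varied little with length, being 0.02 under 2000 bases and -0.00 at 6000 bases or more. No gene of the 10 showed a called interaction of genotype with sex (limma adjusted p of 0.638 or more in the 9 tested), where 13 of 10950 transcripts did; 1 KO female limits that test.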

How the data were processed

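PolyA RNA of uncrosslinked liver powder from 4 KO and 5 WT mice was sequenced. The submitters' processing notes name kallisto, sleuth and mm10; for versions, the transcript set and filters the sources used here give nothing. The per-library values deposited by the authors were treated as a normalised signal: estimated abundance divided by a factor per library. The table also holds the authors' p-value and q-value, their coefficient, its standard error and mean observation on a natural log scale, and the observed and technical variances, per the file headers. Coefficients (WT minus KO) were multiplied by -1 and converted to log2. The sources used here do not state how 1 transcript per gene was picked.

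Depth was estimated from the steps between low values; 52.8% to 68.0% of low values were whole within 0.1 read, so no count test was run. limma 3.58.1 (R 4.3.3) was run with genotype as the only term and a prior trend, on log2(value + 1); this scale understates changes of low transcripts, and folds are ratios of means. Each animal was 1 replicate. Ratios were tested by exact permutation of their log2 values. The limma and permutation steps were tested on simulated data. Of the transcript identifiers, 98.6% matched GENCODE M21. Promoters are RefSeq's (GRCm38.p6); 9 of the 10 genes had an entry, and Ago2 had none. Coordinates are 1-based.

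The genes, lists and tests were chosen with earlier results of these data known. Genes named are the 10 core genes, up to 4 called genes with the smallest adjusted p per direction and list, Ago4, Tnrc6c, Prkra and the 3 named genes with the highest correlation with Ago2. Papd4, Cnot6, Fxr2 and Fmr1 were named outside this rule, after their values were seen. Alternatives were other pseudocounts, filters, a threshold of 0.01, no prior trend, equal totals, sex as a covariate, males alone, a replicate block, the authors' test and leaving out each library.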

Additional observations from a re-analysis of the deposited data

Results flagged for a closer look

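Tnrc6a in KO replicate 3 (7.28) lay farther from the other 3 KO livers (6.16, 6.28 and 6.24) than Dixon's 95% criterion allows for 4 values, a criterion that chance passes in about 1 of 20 groups. The same library gave the highest KO value of 7 of the 10 genes. Without it the log2 difference of Tnrc6a was 0.21 in place of 0.25, and the call was not made. The criterion was applied in both groups to the 10 genes and to Ago4, Tnrc6c and Prkra, and flagged this value only. With that many groups, 1 flag by chance would not be unusual.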

How the results depend on the processing

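The calls of Drosha and Tarbp2 were lost under 1 of 20 alternatives each (males alone), and that of Tnrc6a under 11. All transcripts called numbered 3934, 2362 at a threshold of 0.01, 2216 among males alone and 3170 to 3996 with 1 library left out. Core genes called went from 3 to 0 among males alone by limma (3 KO against 2 WT; 3 at an unadjusted p under 0.05) and were 2 to 3 with 1 library left out; pathway genes called went from 27 to 14 at 0.01, 59 with equal totals, 13 among males alone and 20 to 28 with 1 library left out.

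With equal totals the log2 difference changed sign for Ago2 (0.17), Dgcr8 (0.11), Dicer1 (0.28), Xpo5 (0.29), Tnrc6b (0.15), Prkra (0.26), Ncbp2 (0.14), Dnaja2 (0.12), Dnaja1 (0.0037), Parn (0.017), Mtpap (0.046), Pabpc1 (0.064) and Fxr1 (0.050). It also changed sign for Ago2 with sex as a covariate (0.0072), for Xpo5 (0.097) and Ago4 (-0.050) among males alone, and for Ago4 in the authors' deposited table (-0.018). With 1 library left out it ranged from -0.15 to 0.022 for Ago2, -0.10 to 0.0038 for Xpo5, -0.030 to 0.088 for Ago4 and -0.042 to 0.21 for Tnrc6c. The cause was not tested.

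Log2 differences of the ratios among males alone were 1.18 for Drosha/Dgcr8, -0.53 for Dicer1/Tarbp2 and 0.73 for Tnrc6a/Tnrc6b, not called because 10 splits allow no small p, and 0.035 for Ago2/Ago3, a change of sign. With 1 library left out they ranged from 1.20 to 1.54, -0.75 to -0.56, 0.42 to 0.57, -0.14 to 0.048 (Ago2/Ago3) and -0.52 to -0.30 (Ago2/Ago1, called without KO replicate 1). Drosha/Dgcr8 and Dicer1/Tarbp2 were not called without WT replicate 1, 3, 4 or 5 (adjusted p of 0.0714, each at the smallest unadjusted p of the smaller design), and were called without WT replicate 2 (0.0476). Tnrc6a/Tnrc6b was not called in 7 of 9 such fits.

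The replicate numbers of the titles are not stated to pair animals, and correlations of deviations between same-numbered livers were 0.23, 0.082, -0.18 and 0.11. With the replicate number as a block, 3552 transcripts, 2 core genes and the ratios 1.43, -0.75 and 0.43 were obtained, the latter with 16 sign flips and no call possible. Low estimated counts limit Ago4, Zcchc11 and P4ha1 among the named genes (geometric means of 7.96, 16.7 and 27.3 per library). Among the core genes Dgcr8 had the lowest geometric mean (110.2), and Drosha the lowest count in a library (54.8, WT replicate 3).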
